A study of Homo sapiens with 4 samples.

Results

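The APOBEC3 genes encode 7 cytidine deaminases, APOBEC3A, APOBEC3B, APOBEC3C, APOBEC3D, APOBEC3F, APOBEC3G and APOBEC3H, which lie side by side on human chromosome 22. Every probe on the array that was annotated to one of these genes, by its symbol or its RefSeq transcript, was taken, and this gave 8 probes among the 34127 probes of the array. APOBEC3F had 2 probes and each of the other genes had 1. By number of genes, the family made up 7 of the 18751 named genes that had a probe with a value on every array.

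APOBEC3 enzymes convert cytosine to uracil in single-stranded DNA. They are known as a defence against retroviruses and mobile elements, in which the uracils become mutations or lead to degradation of the DNA, and several of the genes respond to interferon. In carcinomas, APOBEC3A and APOBEC3B are the members most often linked to clustered cytosine mutations in the tumour's own genome.

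Expression was measured in Hs746T, a gastric carcinoma cell line that carries both an exon-skipping mutation and an amplification of MET, the receptor tyrosine kinase for hepatocyte growth factor. Each of 4 conditions was hybridised to 1 single-colour Agilent array: cells given the solvent DMSO, cells given the MET kinase inhibitor PHA665752, cells transfected with scrambled siRNA (sc siRNA) and cells transfected with an siRNA against MET (MET siRNA). Transfected cells were collected 48 h after transfection with a lipid reagent, whereas the dose and duration of PHA665752 for the array were not given in the sources used here. The inhibitor was compared with DMSO and the MET siRNA with sc siRNA, to ask how the APOBEC3 genes follow a loss of MET activity or of MET itself, and sc siRNA was compared with DMSO to show what the transfected control already carried.

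The DMSO cells were not transfected, so lipid reagent, siRNA and time in culture cannot be told apart in that last comparison. It shares the DMSO array with the inhibitor comparison and the sc siRNA array with the MET siRNA comparison. A low sc siRNA reading thus lowers the ratio of sc siRNA over DMSO and raises that of MET siRNA over sc siRNA. With 1 array per condition there is no spread between replicates and no test, so precision is limited by the count of arrays. A log2 ratio is given with the error that the scanner software itself estimated for the 2 signals, which covers the measurement of a spot and not the variation between cultures. For the detected APOBEC3 probes this error was close to a fixed share of the signal. In DMSO cells it was 99.1 of 991 for APOBEC3B and 53.5 of 534 for APOBEC3G. Their ratios thus all carried an error between 0.20 and 0.23, and exceeding the error means passing that nearly constant value. Ratios were taken after dividing each array by its 75th percentile signal, which was 990.1 on the DMSO, 853 on the PHA665752, 831 on the sc siRNA and 858 on the MET siRNA array. Between 61.1% and 68.2% of probes were well above background on an array, the lowest share being that of the MET siRNA array, where 5.58% of spots carried an outlier mark against 1.69% to 2.21% on the other arrays. No APOBEC3 spot carried such a mark (0 spots).

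The MET probe read 221451 in DMSO cells and 100492 in cells given the inhibitor, 190010 after sc siRNA and 77854 after MET siRNA. Its log2 ratio was -0.93 for the inhibitor over DMSO and -1.33 for MET siRNA over sc siRNA, so the targeted transcript was lower in the cells labelled as its knockdown. Of the epithelial and carcinoma markers, 5 of 6 with a probe were well above background on all arrays, the other being CDH1. Of the 12 leukocyte markers with a probe, 6 were above background on all arrays, 4, among them CD3E, MS4A1 and GNLY, on none, and their summed signal lay between 1961 and 2385, of which CD79A alone gave 1502 to 1724.

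Of the 7 genes, 5 were well above background on all 4 arrays and 2, APOBEC3A and APOBEC3H, on none. The detected set therefore comprised APOBEC3B, APOBEC3C, APOBEC3D, APOBEC3F and APOBEC3G, read by 6 probes. Signals of different probes depend on the probe as well as on the transcript and were not ranked against one another.

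**Figure D1:**
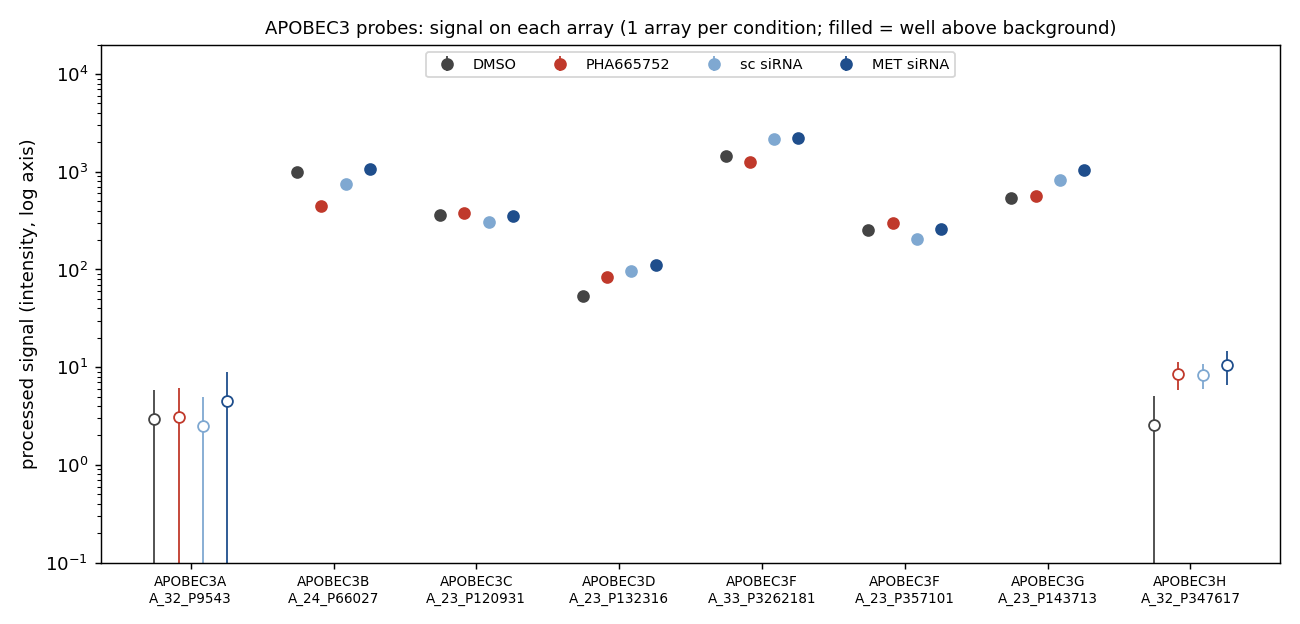
Processed signal (intensity, log axis) of the 8 APOBEC3 probes on each of the 4 arrays, with the scanner software's error as bars, some of which leave the axis at the bottom. Filled points were well above background. The open points of APOBEC3A and APOBEC3H lie between 2.51 and 10.5, and APOBEC3B is the probe whose PHA665752 point sits clearly below its DMSO point.

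APOBEC3B, the predominantly nuclear member of the family, was the gene with the lowest ratio under the inhibitor. Its probe (A_24_P66027, NM_004900) read 991 in DMSO and 447 in inhibitor-treated cells, and 746 after sc siRNA and 1068 after MET siRNA. The PHA665752 array was the lowest of the 4 and the MET siRNA array the highest, 1.25 ± 0.20 log2 units apart after scaling. In RNA from a whole culture, fewer expressing cells and less RNA per cell cannot be told apart.

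For the inhibitor over DMSO the APOBEC3B log2 ratio was -0.93 ± 0.20, a fold of 0.524, and 8.91% of the 14318 genes with a ratio had a lower one. It did not reach the 2-fold limit (a log2 ratio beyond 1 in either direction) as scaled here, and passed it with 2 of the other scalings, at -1.18 on the array median and at -1.03 on the median of detected probes. For MET siRNA over sc siRNA the ratio was of the opposite sign, 0.47 ± 0.20, and 92.3% of 13644 genes had a lower one. Both signs held under every scaling tried, although the siRNA ratio came down to 0.17, less than its error, when arrays were scaled on the median of detected probes. The 2 controls were close together, with a ratio of -0.16 ± 0.20 for sc siRNA over DMSO, within the error. Seen across the arrays, the APOBEC3B signal was lower with the inhibitor than in any other condition, by more than the error, and sc siRNA and DMSO were neighbours within it.

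The probe of APOBEC3B is annotated to the gene's own transcript. A hybrid gene in which a common germline deletion joins APOBEC3A to the end of APOBEC3B, listed by RefSeq as APOBEC3A_B, and the antisense transcript APOBEC3B-AS1 had 0 probes of their own. APOBEC3 genes are closely similar in sequence and the probe sequences were not among the data used here, so which relatives a probe may also capture was not tested for any of the 8.

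APOBEC3D, APOBEC3F and APOBEC3G are cytoplasmic members known for restricting retroviruses that lack the viral protein Vif. Each had a probe that was higher with sc siRNA than with DMSO. They are grouped here after their values were seen, and the other APOBEC3F probe was not higher, at -0.072. APOBEC3H had no ratio. APOBEC3G (A_23_P143713, NM_021822), the best-studied HIV restriction factor of the family, read 534 in DMSO cells and 566 in cells given the inhibitor, 823 after sc siRNA and 1036 after MET siRNA. The transfected cells had the higher signals, and each step in the order DMSO, PHA665752, sc siRNA, MET siRNA was larger than its error, over a full range of 1.16 ± 0.20 log2 units. Against DMSO, sc siRNA gave a log2 ratio of 0.88 ± 0.20, above that of 96.3% of 14271 genes. The ratios within the pairs were smaller, 0.30 ± 0.20 for the inhibitor and 0.28 ± 0.20 for MET siRNA, and the inhibitor value came down to 0.052, within its error, on the array median, as the MET siRNA value went to -0.015 on the median of detected probes.

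APOBEC3D (A_23_P132316, NM_152426) was the dimmest of the probes that were detected, with 53.5 in DMSO and 82.8 in inhibitor-treated cells, and 96.3 after sc siRNA and 112 after MET siRNA. DMSO was the lowest array and stood apart from the other 3, whose upper neighbours, sc siRNA and MET siRNA, differed by less than the error. With sc siRNA its log2 ratio over DMSO, 1.10 ± 0.23, exceeded that of 97.5% of genes and was the only APOBEC3 ratio past 2-fold in any of the 3 comparisons as scaled here. This call was lost under normexp background correction, where the ratio was 0.78, and narrowly under quantile normalization, at 0.9987. With the inhibitor the ratio was 0.84 ± 0.23, above that of 83.6% of genes, and under the other settings it ranged from 0.57 to 0.84. For MET siRNA over sc siRNA it was 0.17 ± 0.22, smaller than its error, and went to -0.13 on the median of detected probes.

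APOBEC3F was read by 2 probes annotated to different RefSeq transcripts of the gene, and they did not tell the same story. The first (A_33_P3262181, NM_001006666) read 1453 in DMSO cells and 1256 in cells given the inhibitor, 2175 after sc siRNA and 2239 after MET siRNA. On this probe the arrays formed 2 levels, untransfected and transfected, with a step of 0.83 log2 units between them and differences of at most 0.0049 within them. The second (A_23_P357101, NM_145298) read 256 in DMSO and 299 in inhibitor-treated cells, and 205 after sc siRNA and 261 after MET siRNA, and showed no such split. For sc siRNA over DMSO the first gave 0.84 ± 0.20 and the second -0.072 ± 0.21, a difference of 0.91 ± 0.29 between probes of one gene.

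The disagreement ran the other way within the pairs. For the inhibitor over DMSO the first probe gave 0.0045 and the second 0.44 ± 0.20, a difference of -0.43 ± 0.29. For MET siRNA over sc siRNA the first gave -0.0049 and the second 0.31 ± 0.21, a difference of -0.31 ± 0.29. Whether the probes follow different transcripts of APOBEC3F or also capture a relative was not tested. Where APOBEC3F is counted as 1 gene below, the brighter first probe stands for it.

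**Figure D2:**
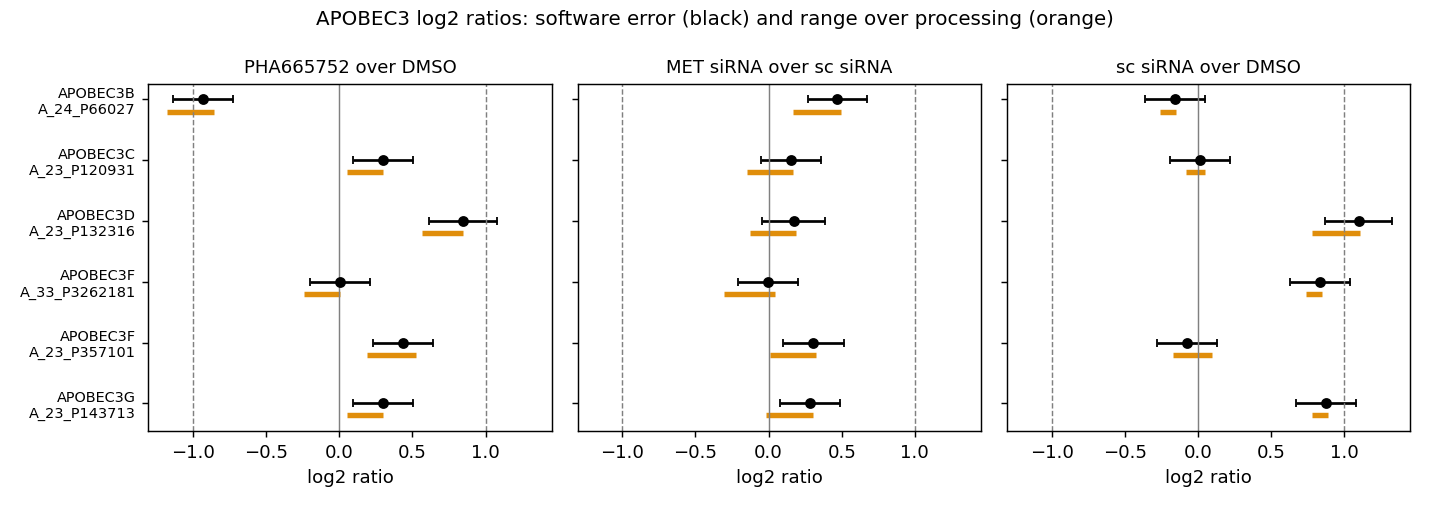
Log2 ratios of the 6 detected APOBEC3 probes in the 3 comparisons (black points) with the scanner software's error (bars), and the range over the alternative settings (orange). Dashed lines mark the 2-fold limit. APOBEC3B lies at -0.93 under the inhibitor and at 0.47 under MET siRNA, and for sc siRNA over DMSO APOBEC3D, APOBEC3G and the first APOBEC3F probe lie at 1.10, 0.88 and 0.84 while the other 3 probes lie between -0.16 and 0.016.

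APOBEC3C, a small member with activity against mobile elements, moved least. Its probe (A_23_P120931, NM_014508) was printed 10 times on each array, which gives the one direct view of technical spread within the family. The mean signal was 360 in DMSO cells and 381 in cells given the inhibitor, 305 after sc siRNA and 350.1 after MET siRNA, and the log2 values of the 10 spots had an SD of 0.054, 0.10, 0.076 and 0.10 in the same order. Spots of 1 array are repeat readings of 1 hybridised sample and not replicates of a condition.

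The full range of APOBEC3C over the 4 arrays was 0.30 log2 units, from DMSO to PHA665752, and no step between neighbouring arrays exceeded the software's error. The ratio was 0.30 for the inhibitor with a standard error over spots of 0.037, 0.15 with a standard error of 0.040 for MET siRNA, and 0.016 with a standard error of 0.029 for sc siRNA over DMSO. Judged by its spots the inhibitor ratio was thus larger than the reading error, but it depended on the scaling: dividing by the percentile added 0.21 log2 units to every ratio of that pair, and scaling on the array median left 0.051. The MET siRNA ratio of APOBEC3C went to -0.15 on the median of detected probes.

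**Figure D3:**
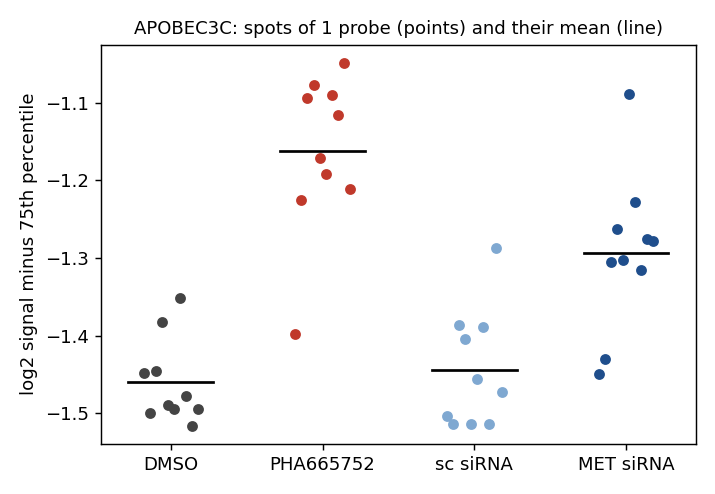
The 10 spots of the APOBEC3C probe on each array, as log2 signal minus the log2 75th percentile of that array (vertical axis), with their mean as a line. DMSO and sc siRNA have nearly the same mean, 0.016 apart, and the PHA665752 mean lies 0.30 above DMSO.

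APOBEC3A and APOBEC3H, which are known mainly from myeloid cells and lymphocytes respectively, were at or near background. The APOBEC3A probe (A_32_P9543, NM_145699) read 2.94 in DMSO and 3.07 in inhibitor-treated cells, and 2.51 after sc siRNA and 4.51 after MET siRNA. The APOBEC3H probe (A_32_P347617, NM_181773) read 2.54, 8.59, 8.40 and 10.5 on the same arrays. None of these 8 readings was marked well above background, and each was below the lowest signal so marked on its own array, which was 10.8, 12.3, 10.2 and 17.4 in the same order. No ratio is therefore given for these genes, and a transcript below this limit was not detectable on these arrays.

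Read as a family, the detected APOBEC3 genes had a median above 0 in all 3 comparisons as scaled here. For the inhibitor over DMSO, 0 of the 5 genes with a ratio were past 2-fold in either direction, against 13.1% of all genes higher and 8.03% lower. Their median log2 ratio was 0.30, beside 0.075 over all 14318 genes, with 4 genes above 0 and APOBEC3B below it. On the array median their median was 0.051, beside -0.17 over all genes. APOBEC3F, at 0.0045 here, was below 0 under 6 of the 8 alternatives. The other alternatives changed only the dim filter and could not move it. For MET siRNA over sc siRNA, again 0 of 5 were past the limit, against 2.04% of all genes higher and 0.696% lower. The median was 0.17 beside -0.017 over all 13644 genes. But on the median of detected probes 4 of the 5 were below 0, where the median over all genes was -0.31. For sc siRNA over DMSO, APOBEC3D alone was past it, 1 of 5, against 2.89% of all genes higher and 1.16% lower, and the median was 0.84 beside -0.011 over all 14271 genes. The members with ratios there split into APOBEC3D, APOBEC3F and APOBEC3G, at 0.84 to 1.10, and APOBEC3B and APOBEC3C, at -0.16 and 0.016, although the second APOBEC3F probe fell with the lower set. The median of 0.84 is thus the value of the first APOBEC3F probe. With the second probe, at -0.072, in its place the middle value would be that of APOBEC3C, 0.016, close to that of all genes. These medians are descriptions of 5 genes from the same 4 arrays and were not tested.

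**Figure D4:**
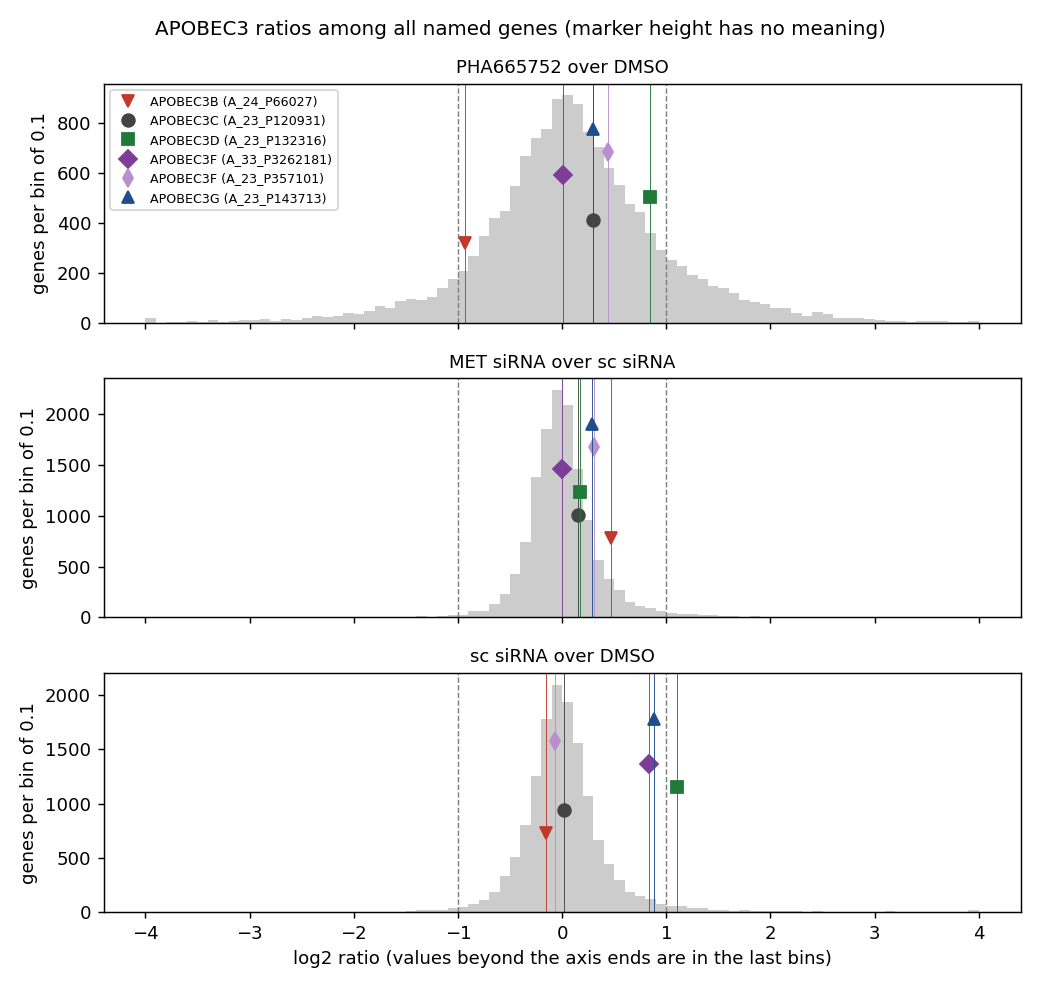
Distribution of the log2 ratios of all named genes (grey, genes per bin of 0.1) in each comparison, with the 6 detected APOBEC3 probes as coloured lines and markers whose height has no meaning. The inhibitor panel is the widest, with APOBEC3B towards its lower side at -0.93, and in the lowest panel APOBEC3D, APOBEC3G and the first APOBEC3F probe stand in the upper tail.

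Genes whose 3 ratios lay closest to those of each detected probe, by Euclidean distance over the 3 log2 ratios among 13067 genes, were then listed. Closest to APOBEC3B were CPAP and GAS2L3, both at a distance of 0.17, and CSTF3-DT at 0.19. CPAP is a centriole assembly protein and GAS2L3 a cytoskeletal linker. CPAP had log2 ratios of -0.94, 0.44 and -0.32 for the inhibitor, MET siRNA and sc siRNA comparisons, and GAS2L3 had -0.91, 0.31 and -0.21. Closest to APOBEC3G were RASGEF1B at 0.057, IL4I1 at 0.088 and MICB, a ligand of the natural killer receptor NKG2D, at 0.091. Closest to APOBEC3D were SLC30A1, a zinc exporter, at 0.086, SLC3A2, the heavy chain of amino acid transporters, at 0.12 and RAB3IL1 at 0.13. The first APOBEC3F probe had SERTAD1, CHRM4 and LNPEP closest, at 0.091 to 0.10, and the second had DMAC1, RASSF7 and STOML1, at 0.036 to 0.052. APOBEC3C, near the middle of the distribution where genes are dense, had MEIS1, TST and TANGO2 within 0.022 to 0.025. With 3 values per gene such likeness is a description only.

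Genes for uracil repair and the handling of single-stranded DNA had ratios mostly below 0 with the inhibitor, 14 of 17. Over all genes, 54.9% were above 0. Of the 19 genes listed, those 17 had a ratio, with a median of -0.61. Past 2-fold, 3 were lower and 0 higher (5 lower on the array median), against 8.03% and 13.1% of all genes as scaled here. UNG, the main uracil DNA glycosylase, read 19859 in DMSO and 3562 in inhibitor-treated cells and had a log2 ratio of -2.26, APEX2, an abasic-site endonuclease, was at -1.20 and RPA2, a subunit of the single-stranded DNA binding protein, at -1.06. UNG thus lay on the same side as APOBEC3B under the inhibitor and further from 0. With MET siRNA none was past 2-fold (0 of 17), against 2.04% of all genes higher and 0.696% lower. The median was 0.011 and UNG was at -0.043, beside 0.47 for APOBEC3B. The UNG signals of the transfected arrays, 11136 and 11166, were close together.

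E2F, DREAM and B-MYB proteins form the cell cycle control that is known to act on the APOBEC3B promoter. Of 19 such genes, 17 had a ratio, with a median of -0.74 under the inhibitor. Past 2-fold with it, 7 were lower and 0 higher, against 8.03% and 13.1% of all genes. E2F2 was at -3.68, E2F1 at -3.52 and E2F8 at -2.25. E2F1 read 4016 in DMSO and 302 with PHA665752, against 1992 and 2236 on the transfected arrays. MYBL2, which encodes B-MYB, had a dim probe, with 25.1, 35.2, 22.2 and 19.7 on the DMSO, PHA665752, sc siRNA and MET siRNA arrays, and its ratios were 0.70, -0.22 and 0.077. With MET siRNA 0 of the 17 were past 2-fold in either direction, against 2.04% of all genes higher and 0.696% lower. In that pair 7 were above 0 and 10 below, and the median was -0.0082. For sc siRNA over DMSO 1 gene was past 2-fold, E2F2 at -1.11, against 2.89% of all genes higher and 1.16% lower.

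APOBEC3B is also known as a target of protein kinase C and noncanonical NF-kB signalling through RELB. RELB read 1926 in DMSO cells and 2262 in cells given the inhibitor, 2350 after sc siRNA and 3897 after MET siRNA. Its ratios were 0.45 for the inhibitor, where APOBEC3B was negative, and 0.68 for MET siRNA, where APOBEC3B was positive. Of the 18 NF-kB and PKC genes, 16 had a ratio, with a median of -0.11 under the inhibitor. Past 2-fold with it, 3 were higher and 3 lower, against 13.1% and 8.03% of all genes. MAP3K14, the NF-kB-inducing kinase of the noncanonical branch, was at 1.34, TRAF3, which keeps that kinase low, at -1.34 and TNFAIP3, a feedback inhibitor, at -1.96. The others past the limit, named after their values were seen, were PRKCA at 1.28, BCL3 at 1.17 and IKBKE, whose inhibitor reading of 8.52 was not well above background, so that its value of -1.19 is a bound and the ratio was that low or lower. With probes detected on both arrays 2 genes were lower. MAP3K14 was also the only gene of this list past 2-fold with MET siRNA, at 1.03, a call that 3 of the 8 alternatives did not make (array median, median of detected probes and normexp). Over all genes, 2.04% were higher past 2-fold with MET siRNA and 0.696% lower. For sc siRNA over DMSO the list had BIRC3 at 3.09, again named after its value was seen, and TNFAIP3 at 1.22. Over all genes, 2.89% were higher past 2-fold in that comparison and 1.16% lower.

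Interferon response genes separated the transfected from the untransfected arrays. All 19 of 22 listed genes with a ratio were higher past 2-fold with sc siRNA than with DMSO, from 1.07 to 5.79, with a median of 3.35, and 18 of the 19 were past it on the array median. Over all genes 2.89% were higher past 2-fold in that comparison. RSAD2, an antiviral radical enzyme, was at 5.79, the dynamin-like antiviral GTPase MX1 at 5.66 and OAS1, which makes the activator of RNase L, at 4.76. ISG15 had no usable ratio because its probe lacked a value on at least 1 array. The APOBEC3 genes on the same arrays were at 1.10 or below. The part that the interferon response or the transfection has in the APOBEC3D, APOBEC3F and APOBEC3G values was not tested.

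Within the MET pairs the interferon list had medians nearer 0. With the inhibitor 3 of 19 were higher and 1 lower past 2-fold, against 13.1% and 8.03% of all genes, with a median of 0.31. On the array median this turned to 1 higher and 3 lower with a median of 0.065, and quantile normalization gave 5 higher and 1 lower. MX1 was at 1.55, IFIH1, a sensor of viral RNA, at 1.19 and IFIT2 at 1.12, and the lower gene, named after its value was seen, was OAS3 at -1.11. With MET siRNA 0 were past the limit (1 with quantile normalization), against 2.04% of all genes higher and 0.696% lower. The median was 0.39. On the median of detected probes it was 0.089, where the median over all genes was -0.31.

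Other restriction factors against retroviruses and mobile elements were also higher in the transfected control. Of 14 genes, 11 had a ratio for sc siRNA over DMSO, all 11 above 0, with a median of 1.43 and a range from 0.24 to 5.61. Past 2-fold, 7 were higher and 0 lower, against 2.89% and 1.16% of all genes. MX2, an inhibitor of HIV nuclear import, read 244 in DMSO cells and 1298 in cells given the inhibitor, 9993 after sc siRNA and 15190 after MET siRNA, and it was the only one past 2-fold with the inhibitor, at 2.63, where the list's median was 0.42. Over all genes, 13.1% were higher past 2-fold with the inhibitor and 8.03% lower. With MET siRNA 0 of the list were past it, against 2.04% of all genes higher and 0.696% lower. The list's MET siRNA median of 0.11 went to -0.19 on the median of detected probes.

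Of the 12 genes for APOBEC3 partners and turnover, which include the cullin ligase parts and CBFB that Vif recruits, 11 had a ratio, with medians of -0.22, -0.037 and -0.014 for the inhibitor, MET siRNA and sc siRNA comparisons. TRIB3, a pseudokinase reported to lower APOBEC3A protein, was the exception, with 687 in DMSO and 535 in inhibitor-treated cells, and 1374 after sc siRNA and 3013 after MET siRNA. Its ratio was 1.09 for MET siRNA over sc siRNA and 1.25 for sc siRNA over DMSO, the only ones of the list past 2-fold as scaled here. Over all genes, 2.04% were higher past 2-fold in the first of these comparisons and 2.89% in the second. On the median of detected probes the MET siRNA call was lost, and on the array median 2 other genes, ELOC and CBFB, at -0.83 and -0.82 as scaled here and named after their values were seen, were lower past 2-fold with the inhibitor. APOBEC1, APOBEC2, APOBEC4 and A1CF, the last a cofactor of APOBEC1, had a probe each and 0 of these 4 were well above background on any array.

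The genes around the APOBEC3 cluster give a local background. In the RefSeq order the cluster runs from APOBEC3A to APOBEC3H, with CBX6 before it and CBX7 after it, both subunits of Polycomb repressive complexes. Of 9 neighbours, 8 had a ratio, PDGFB being too dim. With the inhibitor 3 were higher past 2-fold and 0 lower, against 13.1% and 8.03% of all genes. NPTXR was at 1.79, CBX7 at 1.29 and DNAL4 at 1.04, while CBX6, next to APOBEC3A, was at 0.25, and the list's median was 0.30. Under 4 of the alternatives 2 neighbours were past the limit instead of 3, and on the array median the list's median came down to 0.058. CBX7 read 1064 in DMSO cells and 2242 in cells given the inhibitor, 656 after sc siRNA and 1033 after MET siRNA. With MET siRNA 0 of the 8 were past 2-fold, against 2.04% of all genes higher and 0.696% lower. The median was 0.23, which went to -0.074 on the median of detected probes, and CBX7 and CBX6 were at 0.61 and 0.059. For sc siRNA over DMSO, where APOBEC3D, APOBEC3F and APOBEC3G were at 0.84 to 1.10, the 8 neighbours ranged from -0.88 to 0.31 with a median of -0.049, and CBX6 and CBX7 were at -0.30 and -0.45. The highest neighbour thus lay below each of those 3 genes in that comparison, which were named for their high values there. APOBEC3B, APOBEC3C and the second APOBEC3F probe, at -0.16, 0.016 and -0.072, lay within the range of the neighbours.

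**Figure D5:**
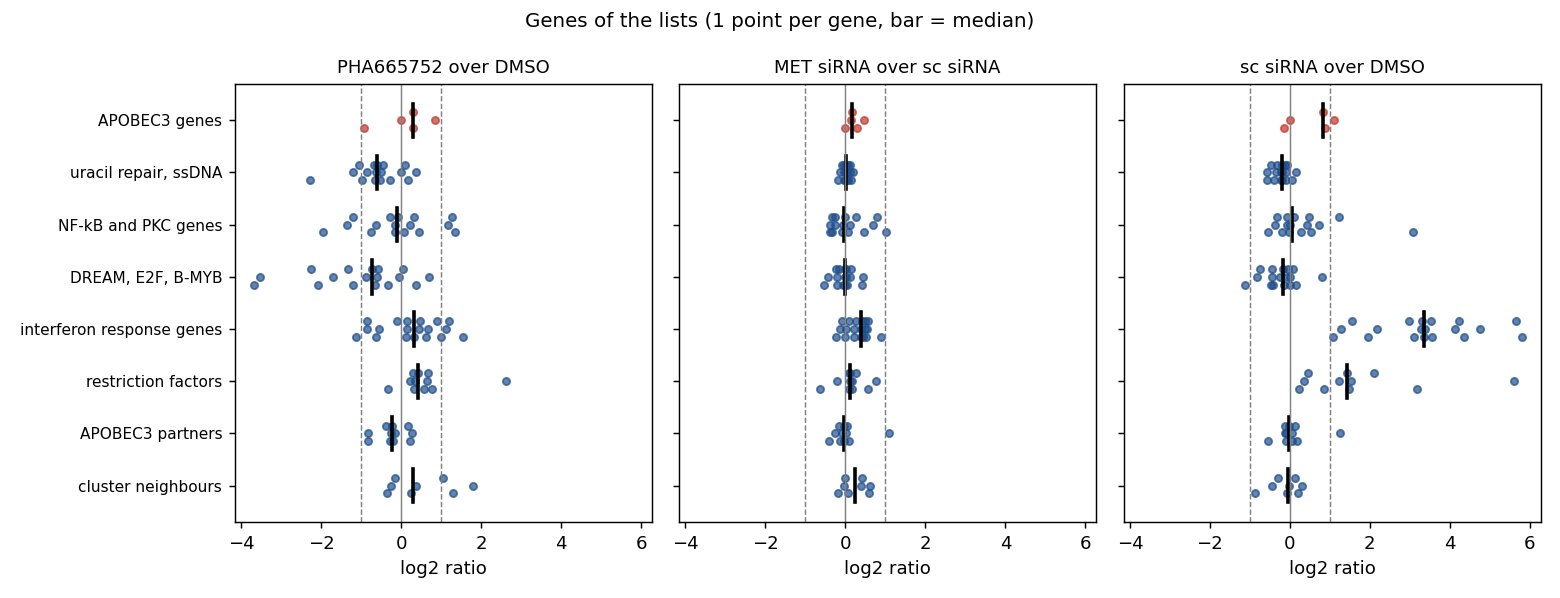
Log2 ratios of the APOBEC3 genes (red, 5 genes by their brightest probe) and of the 7 gene lists with a detected gene (blue, 1 point per gene), with the median of each as a bar. Dashed lines mark the 2-fold limit. In the panel of sc siRNA over DMSO the interferon response genes have a median of 3.35, the other restriction factors 1.43 and the cluster neighbours -0.049. The APOBEC3 median there, 0.84, is the value of the first APOBEC3F probe. Under the inhibitor the uracil repair and E2F lists lie mostly below 0.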

How the data were processed

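Values came from 4 Agilent Feature Extraction files, 1 array per condition, each with 43118 spots. The authors deposited the processed signal, an intensity from which the software (version 11.5.1.1 per the file headers) had subtracted background, with its error and quality marks. The deposited value table holds the same intensities, within 0.05 for 33128 probes spotted once. Control and outlier-marked spots were left out, log2 values of repeated spots were averaged, and the array's log2 75th percentile was subtracted. RefSeq names covered 75.5% of probes. The brightest probe stood for a gene, and a ratio needed a probe well above background on at least 1 array of the pair, with the dim side as a bound. The 2-fold limit served as the call. The members and lists were chosen with earlier results of these data known. Named were all members, up to 3 genes per list with the largest ratios past 2-fold, MET, UNG, MYBL2, RELB, ISG15, CBX6, CBX7 and the 3 nearest genes, and some items under this rule are not reported here. Changed probes were recovered in a test on simulated data, where the planted changes were well past the 2-fold limit and on bright probes only. That test does not bear on ratios near the limit or on dim probes. RefSeq served for names and gene order only. Tools were Python 3.11.15, numpy 2.4.6, pandas 2.3.3, matplotlib 3.10.9, R 4.3.3 and limma 3.58.1. Alternatives changed the scaling, background correction, outlier marks, dim filter and source table.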

Additional observations from a re-analysis of the deposited data

Results flagged for a closer look

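The APOBEC3B probe stood on opposite sides of 0 in the inhibitor and MET siRNA comparisons, with a log2 ratio of -0.93 for PHA665752 over DMSO and 0.47 for MET siRNA over sc siRNA. It drew attention because the single ratio of each pair pointed in opposite directions. The MET probe was lower in both pairs, and MET activity was not measured on these arrays. With 1 array per condition the difference was not tested.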

How the results depend on the processing

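Across 18 probe ratios and 8 alternatives, 130 of 144 values stayed within the software's error of the reported one and 129 kept its sign, with 11 ratios keeping it throughout. These counts include the alternatives that changed only the dim filter. Those could not move any of the ratios, because all 6 probes were well above background on every array. Ignoring outlier marks or using the deposited value table could move them only slightly. No APOBEC3 spot was marked, and the deposited table holds the same intensities. The number of APOBEC3 genes past 2-fold with the inhibitor went from 0 to 1 on the array median (APOBEC3B, -1.18), on the median of detected probes (APOBEC3B, -1.03) and with no filter on dim probes (APOBEC3H, 1.97, never well above background). For sc siRNA over DMSO it went from 1 to 0 with quantile normalization and with normexp (APOBEC3D, 0.78), and to 2 with no filter on dim probes, which added APOBEC3H at 1.98. For MET siRNA it was 0 throughout. The median ratio of all genes shifted by -0.25 for the inhibitor on the array median, by 0.13 with no dim filter, and by -0.30 for MET siRNA on the median of detected probes. The share of genes past 2-fold that were higher was 62.0% for the inhibitor and 42.5% on the array median. It was 74.5% for MET siRNA, 40.2% on the median of detected probes and 62.8% with no dim filter, and 71.5% for sc siRNA over DMSO and 84.3% with normexp. With normexp the genes past 2-fold went from 1875 higher and 1150 lower to 959 and 843 for the inhibitor, from 278 and 95 to 62 and 14 for MET siRNA, and from 413 and 165 to 199 and 37 for sc siRNA over DMSO. With no dim filter they were 641 and 379 for MET siRNA and 806 and 428 for sc siRNA over DMSO, and with probes detected on both arrays 164 and 34, and 296 and 85. Other causes of these shifts were not tested. No paired analysis was possible because each condition had 1 array, and no array could be left out.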
